A study of Oryza sativa with 6 samples.

Results

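The expansin genes and the xyloglucan endotransglucosylase/hydrolase (XTH) genes of rice (Oryza sativa) were compared between mutant and wild type stems. Members were all genes whose symbol or synonym was EXPA, EXPB, EXLA, EXLB or XTH followed by a number in the gene table joined to the array's probe-to-gene annotation. The gene table held 50 such genes, and 30 of them were read by 34 probe sets assigned to that gene alone, out of 22436 probe sets assigned to 1 gene. These were 14 of 29 alpha-expansins (EXPA, 16 probe sets), 11 of 15 beta-expansins (EXPB, 12 probe sets), 4 of 5 expansin-like genes (EXLA and EXLB, 5 probe sets) and the only XTH gene named in that table, XTH8. The expansin-like gene without a probe set was EXLB1, so only EXLA genes stand for that family here. No probe set assigned to several genes named a member. The genotype coi1-13, labelled a mutant, was compared with the wild type cultivar Nipponbare. Both groups were young uppermost internodes, the stem segments below the panicle, with 3 biological replicates and 1 Affymetrix array each. The labels give no lesion, age or treatment, and do not say whether the replicates came from separate plants or pools.

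Expansins are wall proteins that loosen the growing plant cell wall at acid pH without cutting its polymers, and they are known for their part in the elongation of grass stems. Alpha-expansins form a family of their own, while beta-expansins are a large group in grasses and include the group of proteins that are major allergens of grass pollen. Expansin-like proteins share the fold, but a loosening activity has not been established for them. XTH enzymes act on xyloglucan, a hemicellulose that binds cellulose, by cutting a chain and either rejoining it to another or hydrolysing it.

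The values were log2 signals, which cannot be set against each other between probe sets, so each probe set was tested only against itself across arrays. Where linear signals of a list were summed, the brightest probe sets weigh most, and the sums were compared only between arrays. All differences are coi1-13 minus wild type on the log2 scale. They were tested with limma over 34355 probe sets, those whose mean over the 6 arrays ranked in the top 60%, with a Benjamini-Hochberg adjusted p under 0.05 as the threshold for a call. In bulk tissue, fewer cells of a type and less RNA per cell cannot be told apart. The receptor genes COI1A, COI1B and COI2 differed by -0.11, 0.00 and -0.09 and none was called (1 at an unadjusted p under 0.05). The genotype therefore rests on the labels. A signal was taken as above background where it was brighter than all 33 negative controls of its array. Those highest controls stood at 5.26 to 5.56 on coi1-13 arrays and at 4.93 to 5.11 on wild type arrays. With 3 arrays a group, only the spread between these replicates is known.

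Most expansins that could be tested were lower in coi1-13, and 2 expansin-like genes were higher. Of the 34 probe sets, 24 passed the filter on mean signal and were tested, covering 22 genes. Of these, 15 probe sets of 15 genes fell, 4 probe sets of 3 genes rose and 5 were not called. Over all tested probe sets, 19.4% were lower and 16.5% higher, so 35.9% were called in either direction. When arrays were centred on their medians instead, the median difference over all tested probe sets shifted by -0.12 and the share of calls that were higher was 28.1%, against 46.0% without it. Median centring removed none of the members' calls. Only 1 of the called members differed at least 2-fold. The groups did not overlap in 19 of the 24 member probe sets, against 47.5% of all tested probe sets.

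**Figure D1:**
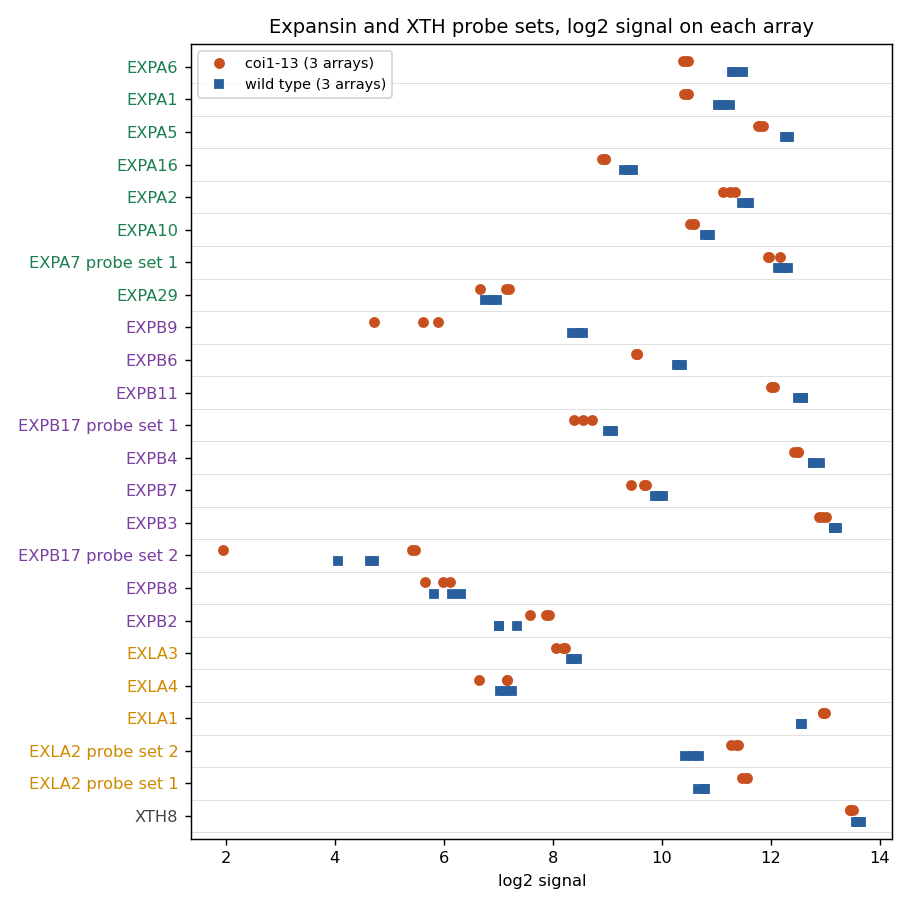
Log2 signal (horizontal axis) of the 24 tested expansin and XTH probe sets on each of 3 coi1-13 arrays (circles) and 3 wild type arrays (squares), with names coloured by family. Of the alpha-expansins, 6 lie wholly to the left in coi1-13 while EXPA7 and EXPA29 overlap, most beta-expansins lie to the left, and EXPB2, EXLA1 and EXLA2 lie to the right. Positions along the axis do not compare transcript levels between genes.

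Among the alpha-expansins, 7 of 8 tested genes fell and none rose (limma; 0 higher at an unadjusted p under 0.05 as well). The median difference of the 8 was -0.38, beside -0.01 over all tested probe sets, of which 19.4% were lower. EXPA6 showed the steepest fall, with log2 signals of 10.40, 10.45 and 10.49 on coi1-13 arrays against 11.29, 11.35 and 11.49 on wild type arrays. It was 1.91-fold lower in coi1-13 (difference -0.93 ± 0.06 SE, adjusted p = 6.1e-07). Every coi1-13 array lay more than the spread of either group below the lowest wild type array. EXPA1, one of the expansins first cloned from rice, had 10.49, 10.41 and 10.47 in coi1-13 against 11.03, 11.25 and 11.12 in wild type. This 1.60-fold fall (-0.67 ± 0.06 SE, adjusted p = 9.08e-06) again left no overlap between the groups.

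EXPA5 had log2 signals of 11.76, 11.80 and 11.86 in coi1-13 and 12.28, 12.27 and 12.34 in wild type, a 1.41-fold fall with little spread in either group (-0.49 ± 0.04 SE, adjusted p = 5.25e-06). EXPA16 was lower by a similar factor of 1.37, with 8.96, 8.90 and 8.96 in coi1-13 against 9.30, 9.41 and 9.47 in wild type (-0.45 ± 0.07 SE, adjusted p = 0.00046). EXPA2, known from elongating internodes of deepwater rice, and EXPA10, known as an aluminium-responsive expansin of rice roots, fell too (differences of -0.32 and -0.28, adjusted p = 0.00198 and 0.000939), and neither overlapped between groups.

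The fall of EXPA7 was the least certain of the called alpha-expansins. Its brightest probe set had 11.97, 12.17 and 11.95 in coi1-13 against 12.23, 12.13 and 12.32 in wild type, so that the second coi1-13 array lay above the lowest wild type array. The difference of -0.20 ± 0.07 SE passed narrowly (adjusted p = 0.0369), and the call was lost under 7 of 13 alternatives, among them leaving out coi1-13 replicate 1 or 3 or wild type replicate 1 or 3. Adjusted p-values over these alternatives ran from 0.00577 to 0.16. The other 2 EXPA7 probe sets exceeded the negative controls on no coi1-13 array and on at most 1 wild type array, and so give no level. EXPA29 was the only tested alpha-expansin that was not called. It had 6.66, 7.20 and 7.14 in coi1-13 and 6.97, 6.76 and 6.89 in wild type, with overlapping groups and a 95% confidence interval of the difference from -0.28 to 0.53.

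Among the beta-expansins, 7 of 10 tested probe sets fell, 1 rose and 2 were not called, with a median difference of -0.35. Over all tested probe sets, 19.4% were lower and 16.5% higher. EXPB9 had the steepest fall among the tested members. Its log2 signals were 5.90, 5.63 and 4.73 on coi1-13 arrays against 8.35, 8.48 and 8.55 on wild type arrays. It was thus above the negative controls on 2 of 3 coi1-13 arrays and well above them on all wild type arrays. The signal was 8.25-fold lower in coi1-13 (-3.04 ± 0.27 SE, adjusted p = 8.9e-06), a size that rests in part on the 1 coi1-13 array below its control. With dim signals raised to the highest control of their array, the difference was -2.77, and it ran from -3.28 to -2.70 over all alternatives.

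EXPB6 had log2 signals of 9.55, 9.53 and 9.54 in coi1-13, with hardly any spread, against 10.29, 10.37 and 10.32 in wild type. It was 1.72-fold lower in coi1-13 (-0.78 ± 0.05 SE, adjusted p = 9.62e-07). EXPB11 was 1.45-fold lower, with 12.02, 12.06 and 12.00 in coi1-13 against 12.51, 12.60 and 12.59 in wild type (-0.54 ± 0.04 SE, adjusted p = 2.05e-06). Both genes were without overlap between the groups, and both are known from deepwater rice, where their transcripts accumulate in elongating internodes.

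EXPB17 was read by 2 probe sets. The brighter one had 8.73, 8.55 and 8.40 in coi1-13 against 9.08, 9.11 and 9.01 in wild type, a 1.42-fold fall (-0.51 ± 0.09 SE, adjusted p = 0.00151). The dimmer one exceeded the negative controls on 1 coi1-13 array and no wild type array and was not called (adjusted p = 0.892), with an interval of the difference from -2.19 to 1.79. Its mean signal of 4.38 lay just above the filter's limit of 4.37, so it gives no check of the brighter one.

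EXPB2 went the other way. Its log2 signals were 7.58, 7.88 and 7.94 in coi1-13 against 7.01, 7.34 and 7.02 in wild type, so that every coi1-13 array lay above every wild type array. It was 1.60-fold higher in coi1-13 (0.68 ± 0.15 SE, adjusted p = 0.00478), and the call held under all 13 alternatives, with differences from 0.56 to 0.79. EXPB2 was the only beta-expansin that rose.

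EXPB2 lies among genes that fell. In the gene order of the RefSeq table (assembly ASM3414082v1), EXPB6, EXPB2, EXPB3 and EXPB4 are consecutive protein-coding genes on chromosome 10. EXPB3 had 12.88, 13.02 and 12.94 in coi1-13 against 13.17, 13.16 and 13.22 in wild type and fell by 0.24 (adjusted p = 0.00102). EXPB4 had 12.51, 12.42 and 12.50 in coi1-13 against 12.91, 12.78 and 12.78 in wild type and fell by 0.35 (adjusted p = 0.000147). In neither gene did the groups overlap. The EXPB4 probe set is of a kind that can match several transcripts, so its signal may include other genes. Within this run of 4 neighbours, EXPB6, EXPB3 and EXPB4 were therefore lower and EXPB2 higher in coi1-13. EXPB8 and EXPB7 are adjacent on chromosome 3. EXPB7 had 9.67, 9.72 and 9.43 in coi1-13 against 10.02, 9.88 and 9.96 in wild type and fell by 0.34 (adjusted p = 0.00644). EXPB8 overlapped between groups and was not called (-0.19, interval from -0.75 to 0.38), an interval that includes the difference of EXPB7, so a contrast between these neighbours was not established. EXPB9 lies elsewhere on chromosome 10, 42 protein-coding genes before EXPB6.

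**Figure D2:**
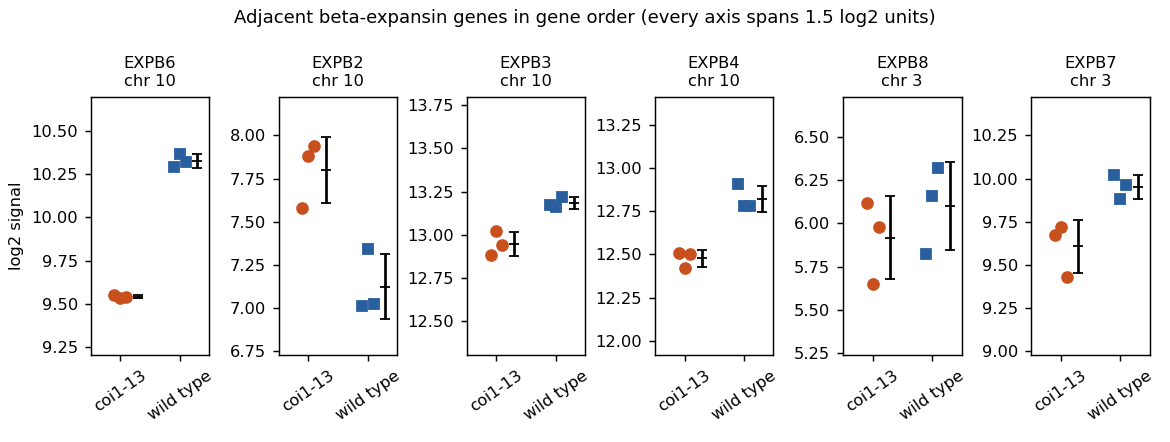
Log2 signal (vertical axes, each spanning the same range) on 3 coi1-13 arrays (circles) and 3 wild type arrays (squares) for the 4 consecutive beta-expansin genes of chromosome 10 and the adjacent pair of chromosome 3, with mean and SD beside the points. EXPB2 is higher in coi1-13, EXPB6, EXPB3, EXPB4 and EXPB7 are lower, and EXPB8 overlaps.

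The expansin-like genes were the only family with more rises than falls. Of 5 tested probe sets, 3 rose, none fell and 2 were not called (limma; 1 lower at an unadjusted p under 0.05), and the median difference was 0.41. The rises were those of 2 genes, EXLA1 and EXLA2, and 16.5% of all tested probe sets were higher. EXLA2 was read by 2 probe sets that gave the same answer. The brighter had 11.54, 11.57 and 11.48 in coi1-13 against 10.66, 10.79 and 10.77 in wild type, a 1.73-fold rise (0.79 ± 0.05 SE, adjusted p = 6.17e-07), but it is of a kind that can cross-hybridise. The other, which is not, had 11.40, 11.36 and 11.28 in coi1-13 against 10.43, 10.69 and 10.57 in wild type, a 1.72-fold rise (0.78 ± 0.06 SE, adjusted p = 5.47e-06). Neither overlapped between the groups.

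EXLA1 had log2 signals of 12.96, 12.96 and 12.99 in coi1-13 against 12.56, 12.57 and 12.55 in wild type. The replicates of each group were nearly identical, and the 1.33-fold rise was many times their spread (0.41 ± 0.03 SE, adjusted p = 3.61e-06). EXLA3 and EXLA4 did not share in these rises. EXLA3 had 8.23, 8.06 and 8.19 in coi1-13 against 8.33, 8.44 and 8.39 in wild type, lower on every coi1-13 array but not called (-0.23 ± 0.09 SE, adjusted p = 0.0772). It was called lower under median centring (-0.35, adjusted p = 0.0182), and adjusted p-values over all alternatives ran from 0.0182 to 0.211. EXLA4 had 7.17, 7.17 and 6.65 in coi1-13 and 7.15, 7.04 and 7.26 in wild type, with an interval of the difference from -0.55 to 0.24. The 95% intervals of EXLA1 (0.34 to 0.48) and EXLA2 (0.68 to 0.90 for the brighter probe set) lay above those of EXLA3 (-0.43 to -0.03) and EXLA4.

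XTH8, studied in rice as a gibberellin-responsive gene of growing leaf sheaths, had the smallest difference of the called members. Its log2 signals were 13.46, 13.45 and 13.51 in coi1-13 against 13.61, 13.57 and 13.65 in wild type. The groups did not overlap, but the gap was small, 1.10-fold (-0.13 ± 0.03 SE, adjusted p = 0.0106). The call was lost without the variance trend (adjusted p = 0.0988, over a range from 0.00036 to 0.0988 across alternatives). With 1 gene, no statement on the XTH family follows.

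**Figure D3:**
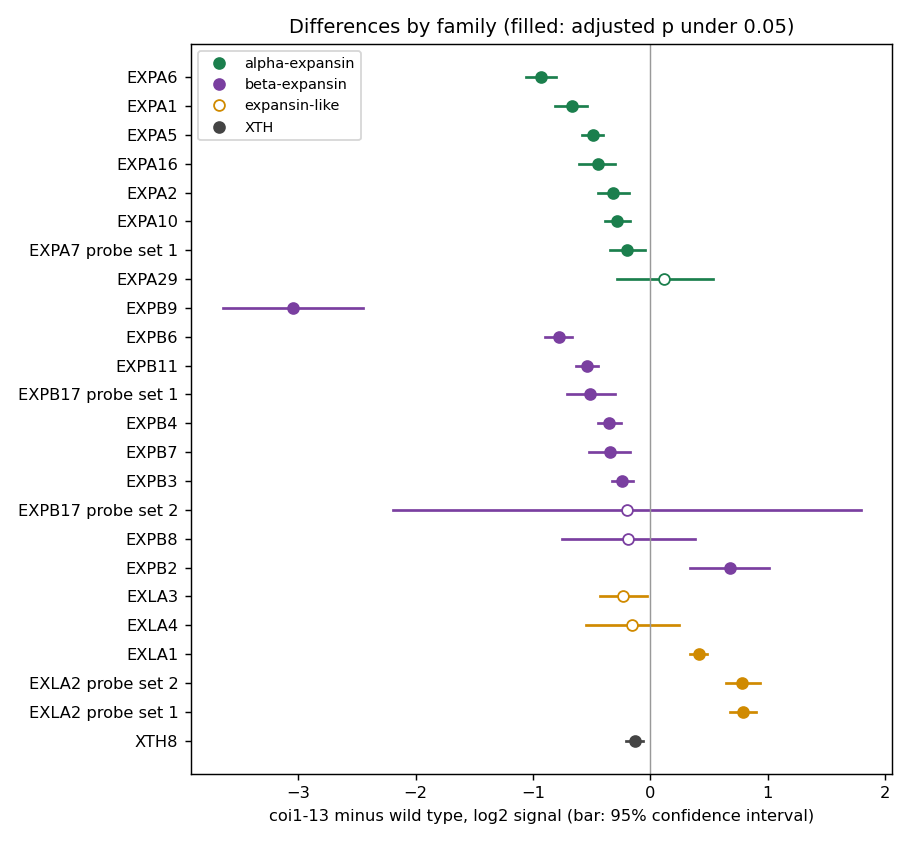
Difference in log2 signal, coi1-13 minus wild type (horizontal axis), with 95% confidence intervals for the 24 tested probe sets, coloured by family. Filled points were called at an adjusted p under 0.05. The 7 called alpha-expansins and 7 of the 8 called beta-expansins lie left of 0, and EXPB2, EXLA1 and both EXLA2 probe sets lie right of it.

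Set side by side, alpha-expansins and beta-expansins had like medians of -0.38 and -0.35, while the expansin-like median was 0.41. The signs of these medians were the same under quantile normalization (-0.38, -0.37 and 0.40) and under median centring (-0.50, -0.47 and 0.29, where the median of all tested probe sets was -0.13). These medians are over probe sets, and EXPB17 and EXLA2 entered with 2 each. By gene the expansin-like family was split. EXLA1 and the brighter EXLA2 probe set differed by 0.41 and 0.79, EXLA3 and EXLA4 by -0.23 and -0.16. Under median centring these were 0.29, 0.67, -0.35 and -0.28. The expansin-like median of 0.41 thus depends on EXLA2 being counted by both its probe sets. With EXLA2 counted once, the median lies midway between EXLA4 and EXLA1. These stood at -0.16 and 0.41, and under median centring at -0.28 and 0.29, so a direction of this family by gene was not established. The difference between families was not tested, since the members were chosen with results of these data known. Bright probe sets were called more often than the tested probe sets at large. Among tested probe sets with a mean log2 signal of at least 9, a limit set after the values were seen, 31.5% were lower and 24.9% higher. Of the 16 member probe sets in that range, 13 were lower and 3 higher. Their median difference was -0.33, beside -0.04 for all probe sets in the range.

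**Figure D4:**
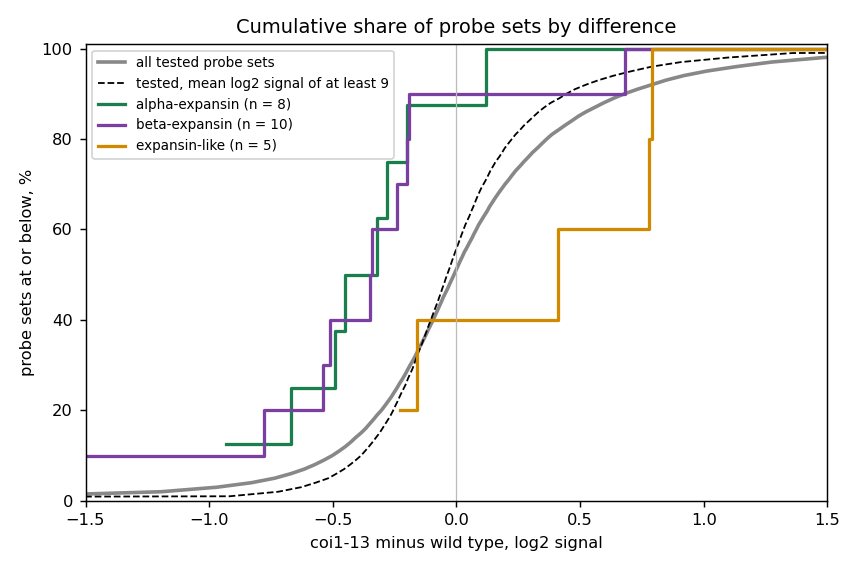
Share of probe sets (vertical axis, %) at or below a given difference in log2 signal, coi1-13 minus wild type (horizontal axis, central part), for 8 alpha-expansin, 10 beta-expansin and 5 expansin-like probe sets and for all tested probe sets. The first 2 families run left of the curve of all tested probe sets over most of the range, the expansin-like steps run mostly to its right, and EXPB9 at -3.04 lies beyond the axis.

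The 6 expansins known from elongating internodes of deepwater rice, EXPA2, EXPA4, EXPB3, EXPB4, EXPB6 and EXPB11, were listed together. The 5 that were tested were above the negative controls on all arrays and all fell, with a median difference of -0.35. Of all tested probe sets, 19.4% were lower, and of those with a mean log2 signal of at least 9, as these 5 had, 31.5%. These genes are also among the members described above. EXPA4 exceeded the controls on no array, so it has no measured level here. Summed over the 6 probe sets as linear signal, the list ran from 20700 to 21300 on coi1-13 arrays and from 26700 to 27200 on wild type arrays, without overlap. EXPB3, EXPB4 and EXPB11, the brightest, weigh most in this sum.

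Other genes of wall polymers went both ways, with more falls than rises. The list held endo-1,4-beta-glucanases (GLU), enzymes that cut glucan chains, glucan synthases of the xyloglucan backbone (CSLC), the xyloglucan xylosyltransferase XXT1 and 2 pectin methylesterase inhibitors (PMEI). Of 18 tested probe sets, 8 fell, 2 rose and 8 were not called, with a median difference of -0.15. Among all tested probe sets, 19.4% were lower and 16.5% higher, with a median of -0.01. The called falls were GLU12, GLU13, GLU10, GLU2, CSLC1, CSLC7, PMEI28 and PMEI8, with differences from -0.96 for GLU12 (adjusted p = 0.000232) to -0.15 for PMEI8 (adjusted p = 0.0263). A dimmer GLU12 probe set, not tested, stood at 4.97 in coi1-13 and 3.45 in wild type. It exceeded the negative controls on 1 coi1-13 array and no wild type array. GLU8 and GLU11 rose by 0.87 and 0.32 (adjusted p = 0.000103 and 0.00388). XXT1, read by a bright probe set at 11.24 in coi1-13 and 11.26 in wild type, was not called (adjusted p = 0.784). A dimmer XXT1 probe set, also not called, exceeded the controls on no array. Of the 4 tested CSLC genes 2 fell and 2 were not called, in the same samples in which XTH8 fell slightly.

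Marker genes of other cells moved on the same arrays. Of 12 anther and tapetum probe sets, 9 fell and none rose (limma; 0 higher at an unadjusted p under 0.05 as well), and all 12 were above the negative controls on at least 5 of the 6 arrays. Among all tested probe sets, 19.4% were lower and 16.5% higher. The summed linear signal of the 12 ran from 44300 to 48000 in coi1-13 and from 56500 to 57600 in wild type. CYP703A3, a fatty acid hydroxylase of the anther, was 8.22-fold lower in coi1-13 (-3.04, adjusted p = 2.25e-08). RTS, a tapetum gene, stood at 14.29 ± 0.08 in coi1-13 and 14.40 ± 0.05 in wild type (SD, n = 3 each; limma adjusted p = 0.0831). Genes known from the anther were thus read above the controls in samples labelled as internode, and their part in the difference of EXPB9 was not tested.

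All 5 probe sets of dividing-cell genes fell, beside 19.4% lower and 16.5% higher over all tested probe sets. They read only 3 genes, CYCB1-1, CYCB2-2 and CDKB2-1. The dimmer CYCB1-1 probe set was above the negative controls on 2 of 3 coi1-13 arrays. The summed signal of these probe sets ran from 1470 to 1650 in coi1-13 and from 2380 to 2510 in wild type. All 4 probe sets of the secondary wall cellulose synthases CESA4, CESA7 and CESA9 fell too, with sums of 21100 to 21900 in coi1-13 and 26800 to 28000 in wild type. Leaf and photosynthesis probe sets went both ways, 5 higher and 2 lower of 9 tested, with sums of 84200 to 87400 in coi1-13 and 71100 to 73800 in wild type. The part of these markers in the expansin differences was not tested.

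The 10 probe sets that did not pass the filter read EXPA3, EXPA4, EXPA8, EXPA26, EXPA31, EXPA32, EXPB10, EXPB18 and 2 of the 3 EXPA7 probe sets. EXPB10 had log2 signals of 0.40, 3.02 and 0.39 in coi1-13 against 4.71, 3.95 and 4.58 in wild type. These groups did not overlap, but no array was above its negative controls, so no fold is given. EXPA8, reported in rice as an expansin of root growth, had 5.57, 5.22 and 5.82 in coi1-13 against 3.05, 2.65 and 3.87 in wild type. It was above the negative controls on 2 of 3 coi1-13 arrays and on no wild type array. The highest controls stood higher on coi1-13 arrays (5.26, 5.26 and 5.56) than on wild type arrays (4.93 to 5.11), so no fold is given. The mean signal of EXPA8, 4.36, lay just under the limit of 4.37. With all probe sets tested, EXPA8 was called higher (adjusted p = 0.0185), but its difference has no exact size, since wild type was not above the controls. EXPA3 and an EXPA7 probe set exceeded the controls on 1 wild type array each, and the others on none.

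**Figure D5:**
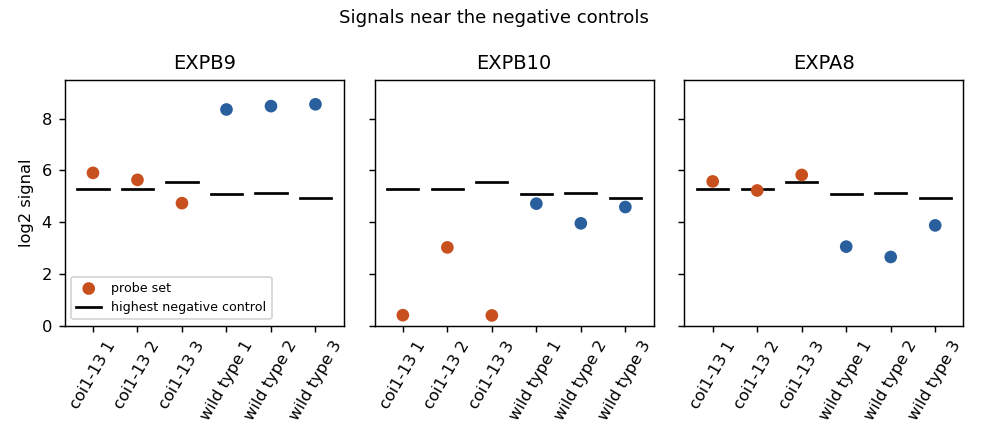
Log2 signal (vertical axis) of EXPB9, EXPB10 and EXPA8 on each coi1-13 array and each wild type array (points), with the highest negative control of the same array (bars). EXPB9 is near the controls in coi1-13 and clear of them in wild type, EXPB10 is below them on all 6 arrays, and EXPA8 is near them in coi1-13 and below them in wild type.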

How the data were processed

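Affymetrix rice arrays, 6 in all, were hybridised with biotinylated cRNA, per the labels. The authors deposited log2 signals of 57381 probe sets, made with GCOS 1.4 per the submitters' processing notes; no further step is given in the sources used here. That the scale is log2 follows from the numbers themselves: once converted to linear signals, every array had a mean of 500.07 after trimming 2% at each end, so the arrays share 1 scale. Values were used as deposited. The 123 AFFX controls were left out, and probe sets of a mean log2 signal of at least 4.37 were fitted with limma 3.58.1 in R 4.3.3 (lmFit, eBayes with trend, no block). Genes were named through gene identifiers in RefSeq (ASM3414082v1), used for names and gene order only. Several probe sets of 1 gene were not merged, and were numbered by mean signal. Members, lists and tests were chosen with earlier results of these data known, and the genes named are the members, the COI receptors and genes of the fixed lists. Per-array values go to up to 4 called genes a family and direction, and to those in a contrast. Alternatives were 2 scalings, 2 filters, no variance trend, a floor, a replicate block, each array left out and, for member counts, 1 probe set per gene or no cross-hybridising probe sets. Whether the replicate numbers pair the samples was checked: deviations of same-numbered arrays correlated at -0.00291, 0.00109 and 0.000416, so no pairing was used. The code was tested on simulated data. Sequences and promoter motifs were not analysed here.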

Additional observations from a re-analysis of the deposited data

Results flagged for a closer look

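EXPA8 was drawn out for a closer look because it showed a signal in data that the main test left out. Its mean log2 signal was 5.54 in coi1-13, above the negative controls on 2 of 3 arrays, and 3.19 in wild type, above them on none.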

How the results depend on the processing

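Of the 19 called expansin and XTH probe sets, 17 kept their call and direction under all alternatives that tested them, and the exceptions were EXPA7 and XTH8. The count of XTH probe sets called lower was 0 without the variance trend (limma; XTH8 had an unadjusted p of 0.037 there). The member counts stayed within 1.5 times the values given, with 13 to 16 lower and 4 to 6 higher over the 13 alternatives, and 3 higher with 1 probe set per gene or without cross-hybridising probe sets. Over all tested probe sets, 5679 were higher and 6668 lower, and under median centring 3721 were higher and 9522 lower; the cause was not tested. Under the replicate block 14 member probe sets were lower and 4 higher, the lost call being that of EXPA7 (adjusted p = 0.0559). The differences of 2 probe sets that were not called changed sign, EXPB17 probe set 2 to 0.38 with the floor at the controls and to 0.97 without coi1-13 replicate 1 (from -0.79 to 0.97 with 1 array left out), and EXLA4 to 0.02 without coi1-13 replicate 3 (from -0.24 to 0.02). With all probe sets tested, EXPA8 and EXPA7 probe set 3 were also called higher and EXPB10 lower, although EXPA7 probe set 3 and EXPB10 were under the negative controls on every array. Signals near the controls limit what is known of the 10 untested probe sets.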
